A study of Mus musculus with 12 samples.

Results

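The probe sets described here are 256450 exon junction probe sets of a mouse exon and junction array, out of 725678 probe sets in the deposited value table. They were chosen by identifier: each starts with the letters JUC, is not coded to chromosome 9, has values in all samples, and is absent from the authors' deposited table of the comparison of Atr BaxBak mutants with BaxBak controls. That table is the place where the deposited files pair probe sets with gene symbols, so these junctions carry no gene name here and are given by identifier and by chromosome, which characters 4 and 5 of the identifier encode. The chromosome of Atr is chromosome 9, so no junction of Atr itself is among them.

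The arrays were hybridised with RNA from whole cerebella of 12 C57BL/6 mice at postnatal day 3, in 4 groups of 3 samples. All animals carried Math1-Cre, which drives recombination in the lineage of cerebellar granule cells. The BaxBak controls were Math1-Cre;Bax-loxP/loxP;Bak--/-, and the Atr BaxBak mutants carried Atr-loxP/loxP in addition. The p53 controls were Math1-Cre;p53-loxP/loxP, and the Atr p53 mutants carried Atr-loxP/loxP as well. Bak was thus absent from every cell of the BaxBak animals, whereas Bax, Trp53 and Atr were floxed and open to deletion in the granule cell lineage. In such whole-tissue RNA, fewer cells of a type and less RNA per cell cannot be told apart.

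A junction probe set lies across the point where splicing joins exons, so its signal reads a splice form rather than a whole gene. Such signals depend on the level of the gene, on how often that junction is used, and on how well the probes pair with the transcript. Atr encodes a kinase that answers replication stress, Trp53 encodes the transcription factor p53 that halts or kills damaged cells, and Bax and Bak1 encode the proteins that open the mitochondrial outer membrane in apoptosis. Granule cell precursors are still dividing on the surface of the cerebellum in the first days after birth. Atoh1, also called Math1, is the transcription factor of these precursors and the source of the Cre driver.

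The choice by identifier used measured values, although it reads as a rule on names. The authors' deposited table holds 34305 probe sets with a step-up adjusted p up to 0.0499973, and its largest unadjusted p-value is 0.00233381. Recomputed over the 12 samples with 1 mean per group, none of the 256450 junctions had an unadjusted p in that comparison at or under this value. The junction just outside the list had a difference of -0.78 (log2) and a p of 0.00233495, and the probe set just inside had a difference of -0.66 and a p of 0.00233388. The Atr comparison in the BaxBak background is therefore given below as a description with no test. A choice by p-value also depends on the spread between samples. The median residual SD was 0.27 (log2) in the unnamed junctions, 0.14 in the 9889 listed junctions outside chromosome 9 and 0.18 in the 413616 unlisted exon regions. The listed junctions were also brighter, with a median log2 signal of 8.79 against 6.46 in the unnamed junctions. The part of signal level in the gap in SD was not tested.

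Signal on the unnamed junctions was close between groups. The median log2 signal was 6.46 over all of them, and in 73.8% of them the mean over samples exceeded the mean of the negative controls (4.27). Sample medians averaged 6.53 ± 0.02 (SD, n = 3) in BaxBak controls, 6.45 ± 0.02 in Atr BaxBak mutants, 6.48 ± 0.02 in p53 controls and 6.46 ± 0.06 in Atr p53 mutants. Negative controls ran the other way, with group means of 4.11 in BaxBak controls, 4.43 in Atr BaxBak mutants, 4.23 in p53 controls and 4.30 in Atr p53 mutants. Their mean served as a covariate in an alternative fit of the tested comparisons, given at the end. Their part in the other differences below was not tested. On the first principal component of these junctions (18.9% of the variance) the 6 samples of the BaxBak groups lay between 14.6 and 118, and the 6 samples of the p53 groups between -129 and 0.43. The groups of the 2 backgrounds therefore did not overlap on that component.

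The list holds repeated measurements. All 12 values were shared with at least 1 other junction in 10503 members (4.10%), which left 248864 distinct sets of values. Sharing was most frequent on the Y code, where 82.0% of the 1820 junctions had such a partner. Chromosome 2 had the most junctions (22941). Median signal ranged over the 20 chromosome codes with more than 1000 junctions from 3.05 on Y to 6.81 on chromosome 11.

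The p53 groups were compared with the BaxBak groups in both Atr states together. This contrast asks which junctions differ between the 2 sets of alleles whether or not Atr is floxed. Its estimate is uncorrelated with that of the comparison that chose the members, but both rest on the same residual SD. The share called is therefore not independent of the choice of members. Of the 256450 unnamed junctions, 5652 differed (limma, adjusted p under 0.05 over all 719071 probe sets), 2003 of them higher and 3649 lower in the p53 groups. This is 2.20%, under the 2.55% called among all probe sets tested, of which 1.01% were higher and 1.54% lower. Called junctions differed by a median of 0.70 (log2, interquartile range 0.51 to 1.01), and 1436 passed 2-fold. The sign was the same between the control groups and between the mutant groups in 5631 of the 5652. The contrast is the mean of these 2 differences, so a call on it favours a shared sign. The 6 and 6 samples did not overlap in 2866 of them. These were 1.12% of the 256450 unnamed junctions, against 1.14% of all probe sets called without overlap.

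The largest of these differences ran from bright to the level of the negative controls. JUC0700014364.mm.1 on chromosome 7 had log2 signals of 3.88, 3.09 and 3.86 in the BaxBak controls and of 3.78, 2.96 and 3.41 in the Atr BaxBak mutants. Its signals were 10.77, 10.83 and 9.52 in the p53 controls and 9.93, 10.80 and 9.65 in the Atr p53 mutants. Every p53 sample was thus above every BaxBak sample, and all 6 BaxBak samples were below the negative controls of their own arrays. The difference was 6.75 ± 0.28 (SE, log2; limma, adjusted p = 1.71e-06), and with the dim side set to the negative controls it was at least 63.0-fold.

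JUC0700014901.mm.1, also on chromosome 7, had signals of 2.62, 2.18 and 2.63 in BaxBak controls and of 3.73, 3.71 and 3.01 in Atr BaxBak mutants. It reached 8.72, 8.93 and 8.59 in p53 controls and 8.20, 8.41 and 8.73 in Atr p53 mutants. The groups again did not overlap, and the difference was 5.62 ± 0.15 (SE, log2; limma, adjusted p = 7.02e-08), or at least 4.33 (log2) with the dim side set to the negative controls. In identifier order it lies between named junctions of Hps5 and Spty2d1.

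Opposite in direction, JUC1100013452.mm.1 on chromosome 11 had signals of 9.89, 9.74 and 9.62 in BaxBak controls and between 9.87 and 10.11 in the 3 Atr BaxBak mutants. It fell to 2.88, 3.22 and 2.95 in p53 controls and 2.33, 2.48 and 2.55 in Atr p53 mutants, all below the negative controls. The difference was -7.14 ± 0.09 (SE, log2; limma, adjusted p = 9.64e-11), or at least 48.8-fold lower. JUC1100013448.mm.1, 4 identifiers before it, had signals from 8.65 to 9.06 in the BaxBak groups and from 2.65 to 3.11 in the p53 groups, a difference of -6.00 ± 0.08 (SE, log2; limma, adjusted p = 1.70e-10) and at least 24.2-fold.

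**Figure D1:**
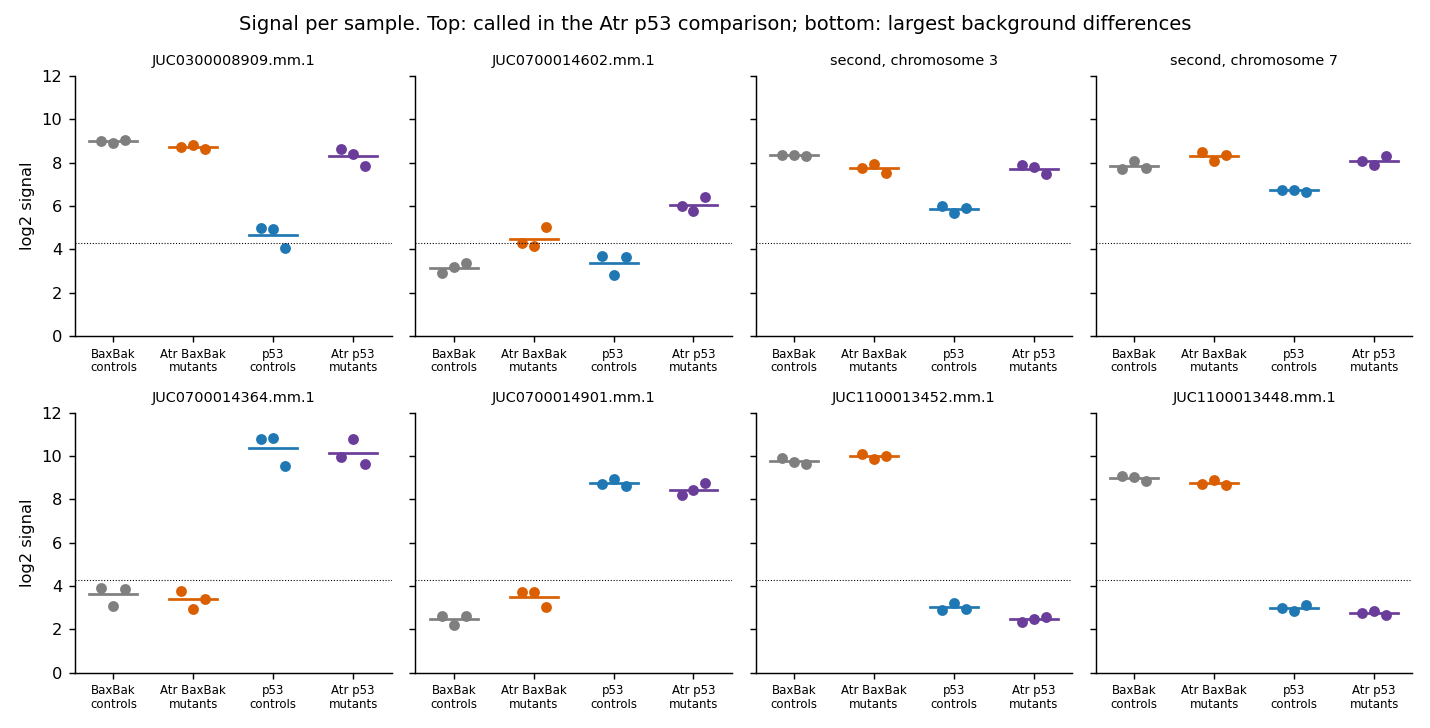
Log2 signal of 8 unnamed junctions in each of the 12 samples, by group; points are samples, horizontal bars are group means and the dotted line is the mean of the negative controls (4.27). The top row holds the 4 junctions called in the Atr p53 comparison, in which the p53 controls are lower than the Atr p53 mutants; the bottom row holds the 2 largest differences in each direction between backgrounds, in which the p53 and BaxBak groups do not overlap.

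Past 4-fold and without overlap of samples, 169 unnamed junctions differed between backgrounds, 79 higher and 90 lower in the p53 groups (0.0442% of all probe sets met these criteria). In 87 of them 1 side lay under the negative controls. The median absolute difference was 2.34 (log2) between the control groups and 2.78 between the mutant groups. The 169 were chosen on the mean of these 2 differences, and in some junctions the 2 were of unlike size. JUC0300008909.mm.1 on chromosome 3 had -4.34 between the control groups and -0.44 between the mutant groups. In window 12 of chromosome 12, 2 junctions had medians of -1.70 and -4.11 in the same order. The 169 junctions differed by a median absolute value of 0.35 between Atr p53 mutants and p53 controls. All 169 had their own set of 12 values, so none was counted through a duplicate.

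These junctions were unevenly spread over the chromosome codes. Chromosome 11, which holds Trp53, had the highest share called (3.00% of 20540 junctions), followed by chromosome 7, which holds Bax (2.94% of 19797). Chromosome 17, which holds Bak1, had 2.23%, and chromosome 6, which holds Atoh1, had 2.20%. The lowest share was on Y, with 3 of 1820 junctions (0.165%), and X had 1.63%. Unlisted exon regions had their highest shares on chromosome 7 (2.56%) and chromosome 11 (2.53%) as well.

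Among the junctions past 4-fold, 33 were coded to chromosome 11, 27 to chromosome 7, 25 to chromosome 5, 19 to chromosome 17 and 18 to chromosome 2. These 5 codes held 72.2% of the junctions past 4-fold and 36.5% of all members. Directions differed between codes: 17 of the 19 on chromosome 17 and 20 of the 27 on chromosome 7 were higher in the p53 groups, whereas all 18 on chromosome 2 and 21 of the 33 on chromosome 11 were lower. Chromosomes 6 and 16 had none.

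**Figure D2:**
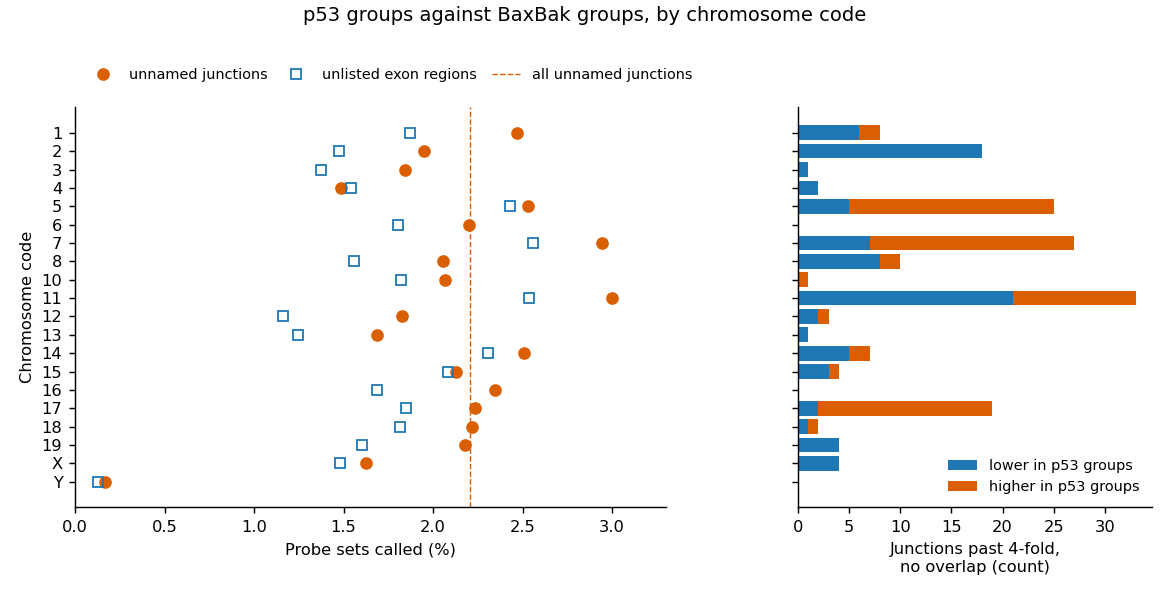
Unnamed junctions that differed between p53 and BaxBak groups, by chromosome code. The left panel gives the percent called (limma, adjusted p under 0.05) for unnamed junctions (filled circles) and unlisted exon regions (open squares), with the percent over all unnamed junctions as a dashed line; chromosomes 11 and 7 have the highest shares of both kinds. The right panel counts junctions past 4-fold without overlap, split by direction, with 33 on chromosome 11 and 27 on chromosome 7.

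Position along a chromosome could be read from the numbers in the identifiers. Of 10313 junctions with a symbol in the authors' deposited table, 9764 matched a RefSeq gene (GRCm38.p6). In each of 19 chromosome codes the identifier numbers followed the gene order in 2 successive runs, with rank correlations of 0.985 and above across junctions, which are not independent. Each chromosome code was cut into 20 windows of equal numbers of unnamed junctions, 400 in all. The median window had 1.74% of its junctions called between backgrounds, with an interquartile range of 1.10 to 2.82%.

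The window with the highest share of all 400 was that holding the place of Bak1 in the second run of chromosome 17, between named junctions of Cuta and Nudt3. There 53 of 637 junctions differed (8.32%), 42 of them higher in the p53 groups, and 7 passed 4-fold. In the first run the window at Bak1 had 2.04% called and the window before it 6.27%, the sixth highest. The window holding the place of Trp53 in the first run of chromosome 11, between Alox12b and Fxr2, was the fourth highest with 76 of 1027 called (7.40%), and its window in the second run had 3.21%. At Bax the windows of the first and second run had 5.56% and 5.25%. The 3 windows at Atoh1 had 2.48%, 0.73% and 2.92%. The highest window of chromosome 6 (6.56%) lay elsewhere, in a stretch that starts and ends with named junctions of Slc6a6 and Fancd2.

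Summed over the 6 windows at Bax, Trp53 and Bak1, 282 of 5309 junctions differed (5.31%), against 2.14% in the other 394 windows. Those 6 windows held 24 of the 169 junctions past 4-fold and 2.07% of the members. The unlisted exon regions, cut in the same way, had 2.19% called at Bak1 in the first run, and 7.40% and 0.833% in the 2 windows that share its place in the second run. At Trp53 they had 5.64% and 3.55% in the first and second run, and at Bax 5.44% and 3.85%. High windows were also found on chromosomes that carry none of the targeted genes, such as window 14 of chromosome 16 (7.67%) and window 6 of chromosome 5 (7.41%). Neighbouring junctions share genes, so windows are described here with no test of their own.

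**Figure D3:**
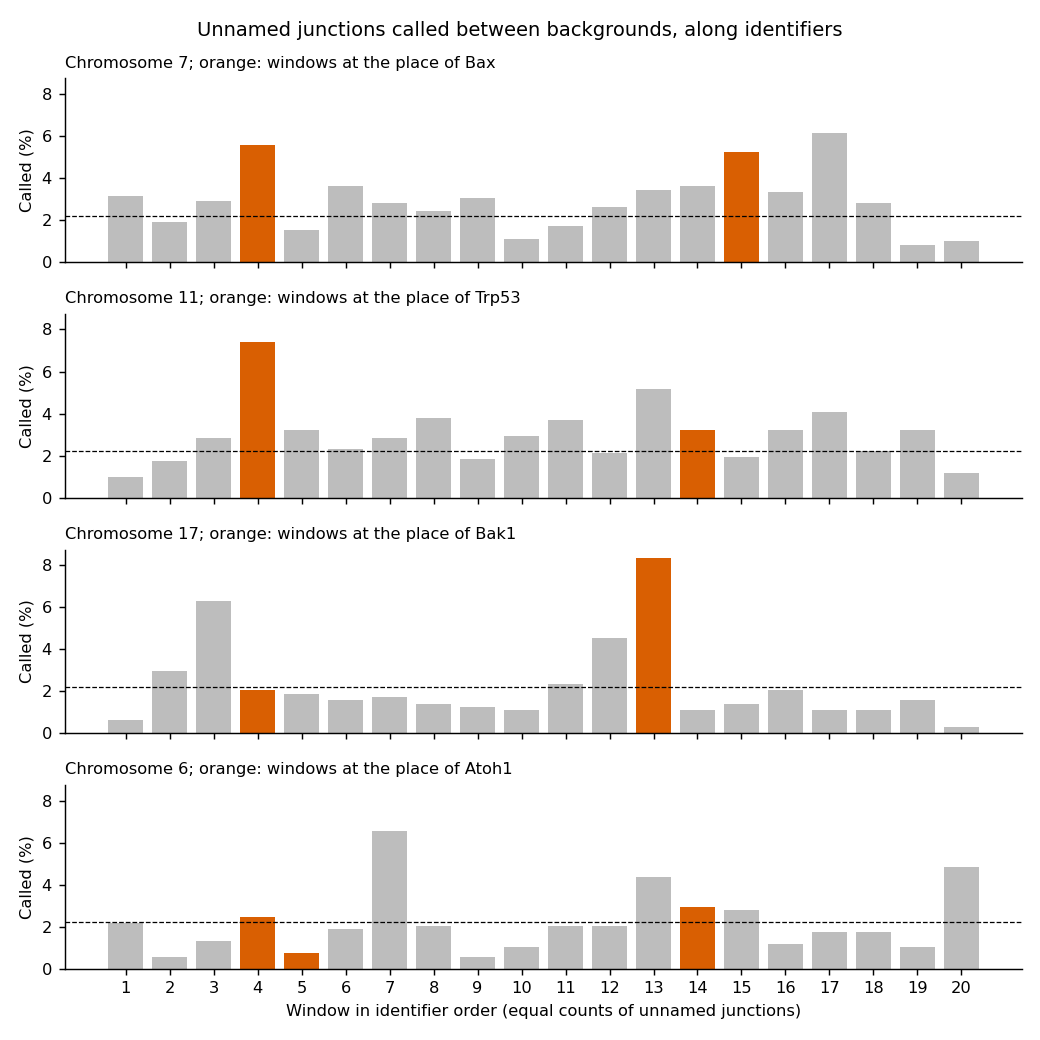
Percent of unnamed junctions called between backgrounds (limma, adjusted p under 0.05) in 20 windows of identifier order on chromosomes 7, 11, 17 and 6; orange bars are windows at the place of Bax, Trp53, Bak1 and Atoh1, and the dashed line is the share over all unnamed junctions (2.20%). The highest bar is the second Bak1 window (8.32%), and the Atoh1 windows lie between 0.73% and 2.92%.

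A stretch of chromosome 2, chosen after its values were seen, held 17 of the 18 junctions past 4-fold on that chromosome. It spans 41 consecutive identifiers, all of them unnamed junctions, and 33 of the 41 were called, all lower in the p53 groups. Group means of the 17 had medians of 5.41 (log2) in BaxBak controls, 6.28 in Atr BaxBak mutants, 3.2 in p53 controls and 2.94 in Atr p53 mutants. These p53 medians lie below the negative controls, and in 10 of the 17 all 6 p53 samples did. The measured difference between backgrounds ranged from -3.25 to -2.01. With p53 samples below the negative controls of their arrays raised to them, the BaxBak groups were higher by a median of 1.5 (log2), and the 17 values ranged from -0.04 to 2.34. All 17 were also higher in Atr BaxBak mutants than in BaxBak controls, by 0.23 to 1.21. The named junctions on either side belong to Rnd3, which encodes a small GTPase of the cytoskeleton, and Cacnb4, which encodes a calcium channel subunit.

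Junctions with consecutive identifiers moved together in part. The difference between backgrounds correlated across neighbouring pairs with r = 0.30 (247836 pairs), and across pairs 100 places apart with r = 0.01; neighbours can share a gene and probe sequence. Of 5348 called junctions with a consecutive member, 1077 (20.1%) had a called neighbour. The direction was the same in 1059 of these 1077.

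Background and sample label cannot be told apart in this contrast. Titles carry a number of unstated meaning, 1836, 100019 or 1842 in the BaxBak groups and 1843 or 1845 in the p53 groups, and no number occurs in both. Cell type markers could be read where the authors' deposited table names their probe sets. All 4 GABAergic interneuron markers were named, with a median difference between backgrounds of -0.43 (log2; range -0.55 to -0.18), and 3 of them had a probe set called. The 4 named of 6 Purkinje markers had a median of -0.21 (range -0.48 to 0.16), 3 with a called probe set, and the 6 named of 8 granule lineage markers 0.06 (range -0.28 to 0.15), 2 with a called probe set. The 4 named of 5 astrocyte markers had a median of -0.31 (range -0.72 to 0.06). For the 4 named of 5 oligodendrocyte markers it was -0.20 (range -0.63 to 0.03), and Otx2 of the choroid plexus was at 0.25. The contrast pools both Atr states and is not a difference between the controls alone. Between Atr BaxBak mutants and BaxBak controls the GABAergic and Purkinje medians were 0.74 and 0.90. Between Atr p53 mutants and p53 controls they were -0.01 and 0.001. The number of named probe sets ran from 1 for Atoh1 to 35 for Gad1, and more probe sets give more chances of a call. In this contrast 13.1% of listed exon regions and 14.0% of listed junctions outside chromosome 9 were called. The part of the marker differences in the junction counts was not tested.

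Atr p53 mutants were then compared with p53 controls, which asks what floxed Atr adds where p53 is floxed. Of the 256450 unnamed junctions, 4 were called (limma, adjusted p under 0.05), all higher in the mutants and none lower. This is 0.00156%, against 0.00445% (32) of all probe sets tested, of which 0.00236% were higher and 0.00209% lower. An unadjusted p under 0.05 was found for 22881 junctions (8.92%), against 7.76% of all probe sets. Junctions coded to chromosome 9, where Atr lies, are not members: 8 of those 15705 were lower and 1 higher.

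JUC0300008909.mm.1 on chromosome 3 had log2 signals of 4.96, 4.92 and 4.06 in the p53 controls and of 8.60, 8.40 and 7.84 in the Atr p53 mutants. In the BaxBak controls it had 9.0, 8.90 and 9.06, and in the Atr BaxBak mutants 8.72, 8.80 and 8.63. The p53 controls thus stood apart from all 3 other groups. The difference between Atr p53 mutants and p53 controls was 3.63 ± 0.24 (SE, log2; limma, adjusted p = 0.00109). A second called junction lies 67 identifiers before it, and its group means were 5.85 in p53 controls, 7.72 in Atr p53 mutants, 8.34 in BaxBak controls and 7.74 in Atr BaxBak mutants. It differed by 1.86 ± 0.14 (SE, log2; limma, adjusted p = 0.00294). A named junction of Mnd1, the gene of a meiotic recombination protein, lies between the pair in identifier order.

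JUC0700014602.mm.1 on chromosome 7 had signals of 3.68, 2.81 and 3.62 in the p53 controls, all below the negative controls, and of 5.99, 5.75 and 6.40 in the Atr p53 mutants. Its BaxBak controls had 2.90, 3.18 and 3.38, and its Atr BaxBak mutants 4.28, 4.15 and 5.03. Both groups with floxed Atr were above their controls with no overlap. In the BaxBak background, however, all 3 controls and Atr BaxBak mutants 1 and 2 were below the negative controls of their own arrays. The difference there lay largely under that floor. The difference in the p53 background was 2.68 ± 0.29 (SE, log2; limma, adjusted p = 0.0347), or at least 3.52-fold. This junction lies in the window at Bax in the second run of chromosome 7, next to named junctions of Dhdh. The fourth called junction, also on chromosome 7, rose by 1.38 ± 0.15 (SE, log2; limma, adjusted p = 0.0385), from 6.71 in p53 controls to 8.09 in Atr p53 mutants.

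These calls rested on the spread shared over 12 samples. With the 6 samples of the p53 background alone, none of the 4 was called (limma, adjusted p from 0.217 to 0.517). Without p53 control 1 the count was 19 and without p53 control 3 it was 7, against 3 to 5 with each other sample of the p53 background left out. Within the label number 1843, which holds all 3 mutants and p53 control 1, the 4 differences were 3.32, 1.70, 2.37 and 1.36.

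Larger differences without a call were described for all comparisons by counting junctions at least 2-fold apart with no overlap of samples. Between Atr p53 mutants and p53 controls there were 1386, 519 higher and 867 lower (0.540%). Of all probe sets 0.274% were so apart, 0.109% higher and 0.165% lower. Between Atr BaxBak mutants and BaxBak controls, the comparison used for the choice of members, there were 3306, 883 higher and 2423 lower (1.29%). The shares of all probe sets were 1.71%, 0.885% higher and 0.828% lower. Cell type markers named in the authors' deposited table also differed in this comparison. The median was -0.61 (log2) for 6 of 8 granule lineage markers, 0.90 for 4 of 6 Purkinje markers and 0.74 for 4 of 4 GABAergic markers. It was 0.97 for 4 of 5 astrocyte markers and 0.54 (range -0.72 to 0.85) for 4 of 5 oligodendrocyte markers. Other named markers went both ways, with Otx2 of the choroid plexus at -0.82 and Vwf of vessels at 0.77. Col1a1 and Bgn of the meninges were at -0.98 and 0.95, and Mrc1 and Cx3cr1 of microglia at -0.63 and 0.36. Marker probe sets are named because they passed this same comparison, and their part in the junction counts was not tested. Between p53 controls and BaxBak controls there were 3242, 1012 higher and 2230 lower (1.26%). Here the shares of all probe sets were 0.68%, 0.215% higher and 0.465% lower. Between Atr p53 mutants and Atr BaxBak mutants there were 4748, 1522 higher and 3226 lower (1.85%), and 1.53% of all probe sets were, 0.446% higher and 1.09% lower. The last 2 comparisons share their BaxBak samples with the choice of members. Lower junctions outnumbered higher ones in each of the 4.

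Most of these lay in the dimmer 2 quartiles of signal. In the dimmest quartile by mean signal, 1.36% were 2-fold apart between Atr p53 mutants and p53 controls, and in the brightest 0.0172%. For Atr BaxBak mutants against BaxBak controls the shares were 1.73% and 0.204%, with the highest in the second quartile (2.48%). The median SD fell from 0.42 (log2) in the dimmest quartile to 0.15 in the brightest. Calls between backgrounds ran differently, with 0.942% in the dimmest quartile and 3.02% in the third.

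**Figure D4:**
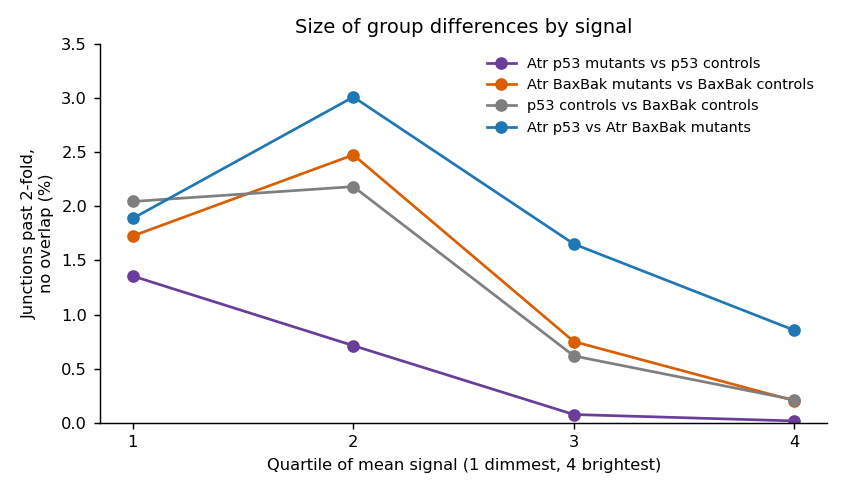
Percent of unnamed junctions at least 2-fold apart without overlap of samples, in quartiles of mean log2 signal (64112 or 64113 junctions each), for 4 comparisons of groups. The shares are lowest in the brightest quartile in each comparison, from 0.0172% for Atr p53 mutants against p53 controls to 0.855% for Atr p53 mutants against Atr BaxBak mutants.

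In the BaxBak background the largest differences were often uneven between samples. JUC0400002211.mm.1 on chromosome 4 had signals between 7.41 and 7.61 in BaxBak controls and of 10.74, 10.73 and 10.92 in Atr BaxBak mutants. Its p53 controls had 10.67, 6.98 and 10.60, so 1 of them was as low as the BaxBak controls and the other 2 as high as the mutants. JUC1100005157.mm.1 on chromosome 11 had 3.90, 3.89 and 3.16 in BaxBak controls and 8.36, 4.58 and 8.15 in Atr BaxBak mutants. The second of these mutants was near its controls, and the 6 p53 samples of this junction lay between 8.47 and 9.41.

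Among the lower junctions, JUC0200020771.mm.1 on chromosome 2 had signals of 4.83, 7.85 and 8.69 in BaxBak controls and of 3.43, 4.19 and 3.41 in Atr BaxBak mutants. JUC0800008889.mm.1 on chromosome 8 had 8.87, 8.89 and 8.91 in BaxBak controls and 7.47, 7.49 and 2.41 in Atr BaxBak mutants. The third mutant alone set most of the latter difference, since it lay below the negative controls of its array. Past 2-fold in both Atr comparisons were 73 junctions, 52 of them in the same direction and 21 in opposite directions. The BaxBak comparison had served to choose the members. No such count was made over all probe sets, so the split has no reference and is a description only.

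Some junctions divided the samples by a wide gap. A gap of at least 3 (log2) separated 2 sets of samples in 119 unnamed junctions (0.0464%) and in 132 unlisted exon regions (0.0319%). Of the 119, 52 were coded to Y, and 13 split the samples exactly by background. Of these 13, 10 were low in the BaxBak groups (chromosomes 5, 7, 12 and 17) and 3 in the p53 groups (chromosomes 7 and 11). Off the Y code, 53 split the samples within a group, and in 24 of those 1 sample stood alone. Atr BaxBak mutant 3 alone was low in 10 and p53 control 3 alone in 5.

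Junctions on the sex chromosomes separated samples across the groups, and the labels give no sex. A set of 34 Y-coded junctions was low in BaxBak control 1, Atr BaxBak mutant 1 and Atr p53 mutant 2, with medians of 2.80, 2.46 and 2.44 (log2). In the other 9 samples their medians lay between 7.80 and 8.12. A set of 16 X-coded junctions ran the opposite way, with medians of 8.99, 9.88 and 10.1 in those 3 samples and between 2.61 and 3.34 in the other 9. No p53 control was among the 3, so the p53 comparison set 1 such sample in the mutants against none in the controls. The 34 and 16 were chosen by this pattern, and their levels are a description.

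Most Y-coded junctions were dim, and 1304 of the 1820 had means under the negative controls. In the p53 comparison 97 Y-coded junctions were past 2-fold without overlap, 96 of them lower in Atr p53 mutants. This was 5.33% of the code and the highest share of any code, against 0.274% of all probe sets. Since 82.0% of Y-coded junctions shared all 12 values with another junction, the 97 can include repeats of the same measurement. Distinct sets of values among them were not counted. A group mean above the negative controls was found in 8 of these 97. A further set of 18 Y-coded junctions was high in Atr BaxBak mutants 2 and 3 alone, with medians of 6.91 and 7.01 against 2.03 to 3.00 elsewhere, but they held 2 distinct sets of values.

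**Figure D5:**
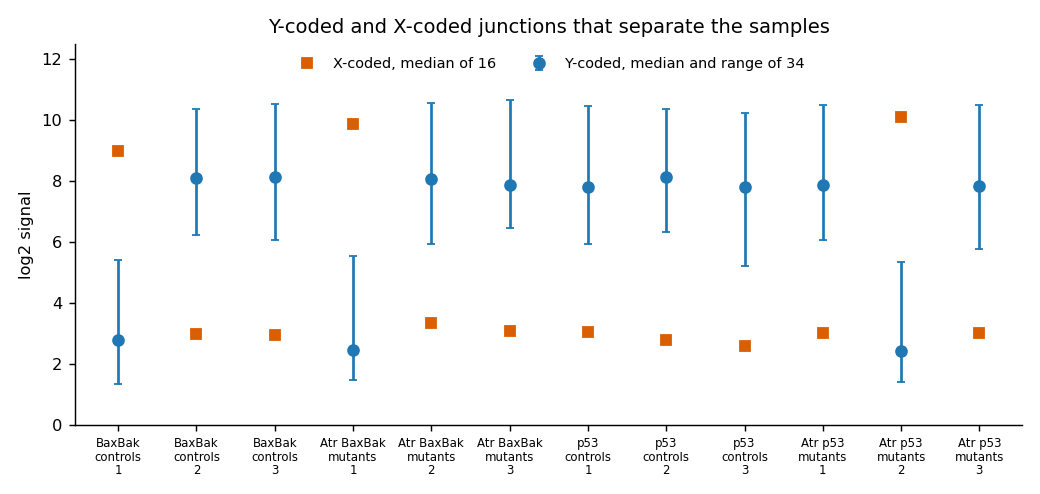
Log2 signal in each of the 12 samples for 34 Y-coded unnamed junctions (circles, median, with bars from the lowest to the highest junction) and for 16 X-coded unnamed junctions (squares, median). BaxBak control 1, Atr BaxBak mutant 1 and Atr p53 mutant 2 are low on the Y-coded and high on the X-coded junctions, and the other 9 samples are the reverse.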

How the data were processed

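Values were used as the authors deposited them, as log2 signals per probe set. The submitters' processing notes name Partek, with no role or version. Background correction, normalization and genome build are not given in those sources used here. Per the labels' protocols, 500 ng of total RNA was labelled with the WT PLUS kit after removal of the meninges. The authors' deposited table of comparisons gives p-values, step-up p-values and a signed fold score, and was used to find unlisted probe sets, for gene names and for its largest p; a second deposited table of log2 values repeated 15127 of the junctions with a difference of 0. The table lists 725678 probe sets; without 61 that lack values and 6546 controls (5222 negative), 719071 remained.

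One mean per group was fitted over 12 samples with limma 3.58.1 in R 4.3.3 (lmFit, eBayes, two-sided, 8 residual degrees of freedom) and p-values were adjusted over all 719071 probe sets by the Benjamini-Hochberg method, with a threshold of 0.05. Group contrasts that the choice of members used, or that share samples with it, were described as counts at least 2-fold apart without overlap. Where all samples of a side were below the negative control means of their arrays, a fold is a lower bound with those means as the floor. Windows, gaps and summaries were computed in Python 3.11.15. The fit was tested on simulated data. Identifiers were printed for at most 2 higher and 2 lower members per contrast, those with the largest difference whose samples did not overlap and with a group mean above the negative controls. Alternatives covered quantile normalization, a filter on dim probe sets, the variance prior, junctions alone, a negative control covariate, label numbers as blocks and each sample left out. The members and lists were chosen with earlier results of these data known. Whether replicates stem from separate litters is not in the labels, so the p-values cover only the spread among these 12 samples. The number of arrays limits the precision. Probe sequences and positions were not used here.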

Additional observations from a re-analysis of the deposited data

Results flagged for a closer look

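In each of a pair of unnamed junctions on chromosome 3, the Atr difference had opposite directions in the 2 backgrounds, with no overlap of samples in either background. In JUC0300008909.mm.1 the 3 Atr p53 mutants were above the 3 p53 controls and the 3 Atr BaxBak mutants below the 3 BaxBak controls. The Atr differences were 3.63 (log2) in the p53 background and -0.27 in the BaxBak background. The former exceeded the latter by 3.90. In the other junction, 67 identifiers earlier, they were 1.86 and -0.59, and the former exceeded the latter by 2.46. The difference between backgrounds was not tested, because the BaxBak comparison had served to choose the members.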

How the results depend on the processing

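The count of 5652 junctions between backgrounds became 10632 with an intensity trend and robust prior, 3553 with junctions adjusted alone, and 2633 to 5610 with each sample left out. It was 2866 when samples were also required not to overlap and 169 past 4-fold, both chosen after seeing the data. It stayed within 1.5 times in the other alternatives run (5482 to 7920). The count of 4 in the p53 comparison became 0 with the 6 p53 samples alone (18864 junctions at an unadjusted p under 0.05, limma) and 0 with the label number as a block (12951), and 3 to 19 with each of the 6 p53 samples left out. The pair on chromosome 3 kept its calls except with the 6 samples (adjusted p from 0.217 to 0.999999, limma), and the pair on chromosome 7 lost its calls with each of the 6 p53 samples left out (adjusted p from 0.0544 to 0.209, limma). Of the chromosome 7 pair, 1 also lost its call with junctions alone (adjusted p = 0.0716, limma) and with a negative control covariate (adjusted p = 0.0506, limma). These fits had fewer samples, tested fewer probe sets or spent a degree of freedom, and other causes were not tested. Counts past 2-fold changed as follows. The BaxBak comparison gave 3306, or 2080 without dim members, 308 past 3-fold and 3742 to 5922 with a sample left out, where fewer samples make overlap less likely. The control comparison gave 3242, or 1820, 551 and 4301 to 6585. The mutant comparison gave 4748, or 1032 past 3-fold and 5435 to 7188 with a sample left out. No paired analysis was possible because the replicate numbers follow accession order and pair no samples; the label number served only as the block given above. The 4 junctions printed for the background difference kept direction and call in the 19 alternatives run on each.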
